A study of Mus musculus with 6 samples.

Results

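Constant intergenic peaks far from promoters are stretches of open chromatin that were found in every sample and lie in the deserts between genes. The regions were chosen by a rule on the deposited peak lists. The 6 lists were merged on chromosomes 1 to 19 wherever peaks shared at least 1 base, and a merged peak was kept when it was present in all 6 lists and when its summit lay outside every annotated gene and more than 50 kb from every transcription start site (TSS). Of 69957 merged peaks, 32147 were present in all 6 lists and are called constant here. The rule kept 584 of them, 1.82% of the constant peaks. The other constant peaks were 7421 near intergenic peaks, which lay outside genes but within 50 kb of a TSS, 12371 peaks in gene bodies and 11771 peaks at promoters.

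ATAC-seq, in which the transposase Tn5 cuts and tags open DNA, was run on crypts of the mouse intestine. The 3 wild-type samples (WT) carried intact Arid3a. The 3 conditional knockout samples (Arid3a cKO) came from VillinCre-ERT2+/-; Arid3a fl/fl mice, in which a tamoxifen-activated Cre driven by the Villin promoter deletes Arid3a in the epithelium only, so that any stromal or immune cells in the preparation keep the gene. Tamoxifen was given to both groups on 3 days in a row, and crypts were taken 1 month after dosing began. Mouse ages and the alleles of the WT animals were not given in the labels, nor whether 1 sample was 1 animal, so that all tests here measure the spread between these samples. Promoter peaks were found for 6 to 8 of 10 epithelial marker genes per list, with none in any list at Cdx1, for 0 of 7 leukocyte markers and for 2 to 4 of 7 mesenchymal and endothelial markers, with none at Col1a2, Pecam1 and Cdh5. The Arid3a promoter held a peak in all 6 lists, which does not check the deletion.

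Open regions far from promoters include enhancers, which are short stretches of DNA that bind several transcription factors at once and act on genes across long distances, and sites of CTCF, a protein that anchors chromatin loops. In the intestinal epithelium such regions are bound by factors that set cell identity, among them GATA, CDX and HNF4 proteins, and by AP-1, a dimer of Jun and Fos proteins that responds to growth and stress signals. ARID3A itself is a DNA-binding protein with an AT-rich recognition sequence.

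The sequences of the leading members are given first, because the letters around the summit are what these regions offer beyond their height. Each is the 201-base window centred on the summit of the highest-ranked list, from the forward strand of GRCm38. Summits differed between lists: over the 6 lists they spanned a median of 174.5 bases, and at most 100 bases in 24.8% of members. The first is the member with the highest lowest rank over the 6 lists, at chr14:105732530-105732730, and capitals mark an ARID3 site (TTTGAT) that overlaps a GATA site (TGATAA).
Between Ndfip2 and Spry2: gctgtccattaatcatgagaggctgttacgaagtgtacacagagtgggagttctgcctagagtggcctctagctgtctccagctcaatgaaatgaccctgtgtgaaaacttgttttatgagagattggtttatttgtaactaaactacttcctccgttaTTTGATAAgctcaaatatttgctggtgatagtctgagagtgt
The second-ranked member, at chr5:91641205-91641405, held 1 GATA site (in capitals) and was less rich in A and T, with 44.3% A+T against 58.7% in the first.
Between Parm1 and Rchy1: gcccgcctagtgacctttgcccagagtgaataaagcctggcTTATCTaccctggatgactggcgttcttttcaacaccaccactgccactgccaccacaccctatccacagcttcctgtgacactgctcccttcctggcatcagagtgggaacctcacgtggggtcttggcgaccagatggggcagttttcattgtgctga
For AP-1, HNF4 and CTCF, the member with a site and the highest lowest rank is shown, with that site in capitals. These lie at chr2:79566335-79566535, chr1:55770199-55770399 and chr13:73160282-73160482.
AP-1, between Cerkl and Itprid2: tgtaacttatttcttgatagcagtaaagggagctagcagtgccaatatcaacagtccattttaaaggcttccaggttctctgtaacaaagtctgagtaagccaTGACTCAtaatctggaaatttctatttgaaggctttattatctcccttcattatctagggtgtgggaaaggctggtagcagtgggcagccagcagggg
HNF4, between Plcl1 and Hsfy2: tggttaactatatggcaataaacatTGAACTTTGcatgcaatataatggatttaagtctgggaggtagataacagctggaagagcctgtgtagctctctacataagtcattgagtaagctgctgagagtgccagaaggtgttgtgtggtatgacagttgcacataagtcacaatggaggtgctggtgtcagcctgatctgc
CTCF, between Irx2 and Irx4: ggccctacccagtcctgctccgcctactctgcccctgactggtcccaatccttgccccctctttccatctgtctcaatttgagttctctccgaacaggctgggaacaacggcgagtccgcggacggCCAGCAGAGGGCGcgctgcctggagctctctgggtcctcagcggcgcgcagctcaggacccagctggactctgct
The last pair are the members with the largest positive and the largest negative genotype statistic, described further on, at chr17:15949778-15949978 and chr5:138870182-138870382. Capitals mark GATA and ARID3 sites in the former, and the latter held none of the AP-1, HNF4, ARID3, GATA or CTCF sites.
Higher in cKO, between Rgmb and Zfp960: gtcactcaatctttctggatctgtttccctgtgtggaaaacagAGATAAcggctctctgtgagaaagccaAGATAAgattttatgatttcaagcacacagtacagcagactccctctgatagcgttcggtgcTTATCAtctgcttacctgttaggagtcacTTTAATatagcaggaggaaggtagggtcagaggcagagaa
Lower in cKO, between Gm5294 and Pdgfa: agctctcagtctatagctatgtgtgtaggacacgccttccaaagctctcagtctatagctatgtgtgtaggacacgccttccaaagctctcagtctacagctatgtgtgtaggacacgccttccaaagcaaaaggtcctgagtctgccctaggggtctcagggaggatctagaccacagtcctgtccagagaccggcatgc
The window of the member between Gm5294 and Pdgfa repeats itself: 65.4% of its bases equalled the base 42 positions further on. Only 2 of the 584 windows reached 60% at any step of 10 to 60 bases.

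The members were thinly spread. Sequence outside genes and more than 50 kb from any TSS made up 371 of 2396 Mb of known sequence (15.5%), and it held 1.57 members per Mb, against 15.6 other constant peaks per Mb in the rest of the genome. All 19 chromosomes held members. Density was highest on chromosome 13, with 48 members at 3.14 per Mb, followed by chromosome 8 with 55 members at 2.56 per Mb, and lowest on chromosome 1, with 29 members at 0.803 per Mb. The distance to the nearest TSS ran from just over the limit to 291 kb with a median of 70.9 kb. It exceeded 100 kb for 130 members and 200 kb for 21. Members lay a median of 22.5 kb from the next constant peak, against 8.30 kb for near intergenic peaks. Their median width of 995 bases was close to the 993 bases of near intergenic peaks and below the 1316 bases of promoter peaks.

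Far intergenic peaks were called less steadily than promoter peaks. Of 1824 far intergenic merged peaks, 584 were present in all 6 lists (32.0%, 95% Wilson interval 29.9 to 34.2), against 38.0% of near intergenic (37.4 to 38.7), 36.7% of gene body (36.2 to 37.2) and 79.1% of promoter peaks (78.4 to 79.7). At the other end, 484 far intergenic peaks (26.5%) were found in a single list. These intervals cover counting error only. The 50 kb limit cut through a continuum. The 3 members just inside it lay 50002, 50150 and 50202 bases from a TSS, with mean ranks at percentiles 47.7, 81.0 and 39.2, and the 3 constant intergenic peaks just outside lay 49900, 49905 and 49998 bases away, with mean ranks at percentiles 64.5, 65.7 and 69.9.

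Members ranked below promoters, and their place among other distal peaks depended on the measure: above them by fold enrichment and below them by −log10 p. Strength is given as the within-list percentile of the deposited fold enrichment, which places a peak between 0 and 100 among all peaks of its own list on chromosomes 1 to 19. The median member stood at percentile 50.6 in WT 1, 63.0 in WT 2 and 67.7 in WT 3. In the cKO lists it stood at 71.3 in cKO 1, 59.2 in cKO 2 and 68.0 in cKO 3. WT 1 was lowest and cKO 1 highest, and the groups overlapped. The median of each member's mean percentile over the 6 lists was 61.8, against 57.1 for near intergenic, 56.2 for gene body and 81.5 for promoter peaks. Presence in all 6 lists was part of the rule and favours strong peaks in every class, so these levels are a description. When lists were ranked by −log10 p in place of fold, the median was 52.7 and the order among distal peaks turned. The median member then stood between percentiles 43.0 and 61.1 over the 6 lists, below near intergenic (47.6 to 63.5) and gene body peaks (48.8 to 64.7) in each list.

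**Figure D1:**
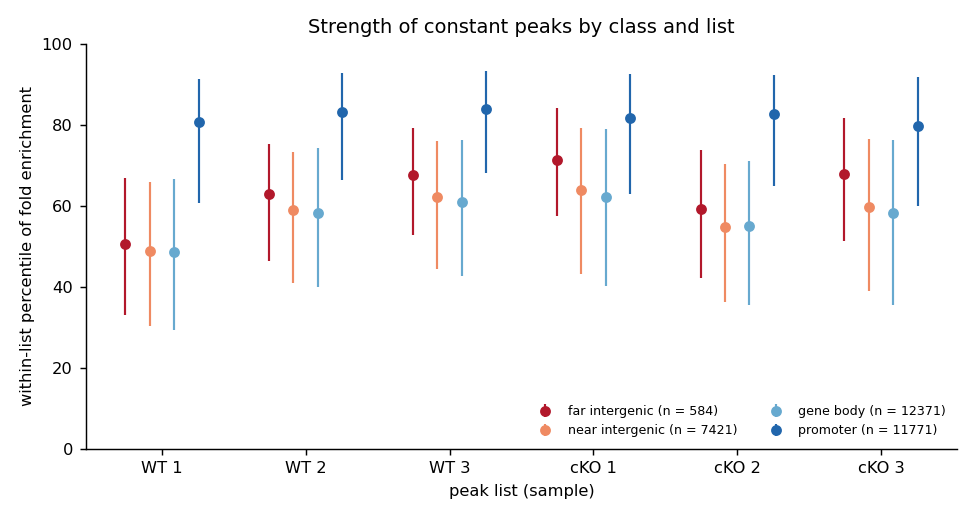
Within-list percentile of fold enrichment (y axis) of constant peaks in each of the 6 lists (x axis), by position class. Points are medians and bars span the middle 50% of peaks. By fold, far intergenic members stand above near intergenic and gene body peaks and below promoters in all 6 lists, with medians between 50.6 and 71.3. By −log10 p they stand below all 3 other classes.

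Pileup and local background were both lower at members than at near intergenic peaks. Both were computed from the deposited fold and p, so they restate the rankings by fold and by −log10 p and do not account for them. The median fold enrichment of members was 5.29, 7.64 and 8.12 in WT 1 to 3 and 8.51, 6.74 and 7.56 in cKO 1 to 3. The fragment pileup at the summit was recovered from the deposited fold and p for 100% of constant peaks. Its median for members was 21, 30 and 38 fragments in WT 1 to 3 and 51, 25 and 41 in cKO 1 to 3. Near intergenic peaks had higher pileups in all 6 lists, at 26, 37 and 47 in WT and 64, 30 and 49 in cKO. Their local background was higher too, at 3.67 to 7.43 fragments per base against 2.82 to 4.94 around members.

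The ranks of members moved with the length of the list, as did those of near intergenic and gene body peaks. From the shortest to the longest list, the median percentile went from 48.9 to 64.0 for near intergenic peaks and from 59.3 to 69.9 for all constant peaks. The median of promoter peaks did not follow list length. It was 80.7 in WT 1 and 81.7 in cKO 1, with the lowest, 79.8, in cKO 3 and the highest, 84.0, in WT 3. WT 1, the shortest list with 39773 peaks, gave the lowest median percentile of members, and cKO 1, the longest with 57140, gave the highest. In between, cKO 2 had 45557 peaks, WT 2 had 49764, cKO 3 had 50444 and WT 3 had 54010, and the members' medians followed that order but for cKO 3 and WT 3. The estimated coverage of the lists was 1.75 to 2.29 fragments per base and did not follow the same order, with 2.11 in WT 1. The part of list length in the genotype shifts below was not tested.

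The strongest members were near the top of every list. For the member between Ndfip2 and Spry2, the gene of a feedback inhibitor of growth factor signalling, the percentile was 95.4, 94.2 and 93.9 in WT 1 to 3 and 95.4, 94.2 and 96.5 in cKO 1 to 3, on pileups of 79, 129, 151, 212, 107 and 181 fragments. The 6 values spanned less than 3 percentile points and the genotypes overlapped. The member 14.4 kb from Parm1, a gene of a mucin-like membrane protein, stood at 97.8, 96.5 and 96.1 in WT and 95.4, 97.8 and 93.9 in cKO. Ranks 4 to 10 had lowest percentiles of 87.7 to 91.7. They included members 79.9 kb from Myc, the growth regulator of dividing crypt cells, 70.3 kb from Sp3, a GC-box binding factor, 47.6 kb from Ppargc1a, a coactivator of mitochondrial genes, and 320 kb from Atp2b1, a calcium pump. A further member lay 68.3 kb from Olfr267, with Lpar1, a lysophosphatidic acid receptor, 160 kb away on its other side. Another lay 128 kb from Fam49a, with Mycn, a relative of Myc, 427 kb away on its other side. The last lay 102 kb from E130114P18Rik. Across all members the lowest of the 6 percentiles exceeded 50 for 243 and was under 5 for 8.

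The base composition of members set them apart from promoters and less so from other distal peaks. Members averaged 53% A+T in the summit window (SD 7.21 over regions, n = 584), against 49.7% in near intergenic, 47.5% in gene body and 35.3% in promoter peaks. Windows 1500 bases to either side of the summit averaged 56.6% A+T beside members and 54.3% beside near intergenic peaks, so that in both classes the summit was poorer in A and T than its surroundings. No CpG at all was present in 83 member windows (14.2%), against 8.62% of near intergenic and 0.943% of promoter windows. The median ratio of observed to expected CpG was 0.212 in members and 0.825 in promoter peaks. Few members lay mostly in repeats, with 37 (6.34%) at least 50% soft-masked, but this share was the highest of the classes. It was 5.30% in near intergenic, 2.94% in gene body and 0.433% in promoter peaks. In a blastn search 0 of 584 members matched the mitochondrial genome.

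Members held more sites of lineage factors than their surroundings. Motifs were searched by exact letters on both strands in the 201-base windows, and a match is not evidence of binding. HNF4 letters (CAAAGTCCA or CAAAGTTCA) occurred in 33 members, 5.65% (95% Wilson interval 4.05 to 7.83). Windows 1500 bases to either side of the same members held them in 2 of 1168 cases, 0.171%. AP-1 letters (TGACTCA) occurred in 78 members, 13.4% (10.8 to 16.4), against 3.51% of the windows beside them. CDX letters (TTTATGG or TTTATTG), the site of the caudal homeobox factors of the gut, occurred in 90 members, 15.4% (12.7 to 18.6), against 7.79% beside them. GATA letters (AGATAA or TGATAA) were the most frequent, in 182 members, 31.2% (27.5 to 35), against 22.7% beside them. Near intergenic peaks also held more of these sites than their surroundings. Their shares were 4.0% against 0.620% for HNF4, 12.1% against 3.85% for AP-1, 12.5% against 6.94% for CDX and 27.3% against 18.7% for GATA.

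ARID3 letters showed the opposite order. They (ATTAAA or ATCAAA) occurred in 138 members, 23.6% (20.4 to 27.2), and in 30.1% of the windows beside the same members, which were richer in A and T. The share among members was nevertheless above that of the other classes, at 18% of near intergenic (17.2 to 18.9), 16.0% of gene body and 5.22% of promoter windows, with 12.6% over all 32147 constant peaks. The ATCAAA form is part of the TCF letters (ATCAAAG) of the Wnt pathway, and all 30 members with TCF letters (5.14%) therefore also counted for ARID3.

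Against near intergenic peaks, the intervals overlapped for 9 of the 13 motifs and were apart for ARID3, CTCF, ETS and NFY. AP-1 at 12.1% (11.4 to 12.9) and GATA at 27.3% (26.3 to 28.3) in near intergenic peaks overlapped the intervals of members, as did HNF4 at 4.0% (3.58 to 4.47). CTCF went the other way, with a site in 7 members, 1.2% (0.582 to 2.45), against 3.18% (2.80 to 3.60) of near intergenic peaks. ETS and NFY were also rarer in members, with intervals of 0.366 to 1.99% against 2.04 to 2.73% and of 2.50 to 5.64% against 6.12 to 7.26%. Over all constant peaks the shares were 8.19% for AP-1, 2.69% for HNF4, 8.33% for CDX, 18% for GATA and 1.77% for CTCF. Letters typical of promoters were rare: KLF (CCACGCCC or CCCCGCCC) in 4.28% of members against 28.6% of promoter windows, ETS (CCGGAAG) in 0.856% against 13.1%, and NFY (CCAATNNG) in 3.77% against 12.8%. FOX letters (TGTTTAC) occurred in 6.85% of members, TEAD letters (GGAATG) in 16.1% and E-boxes of bHLH factors (CAGCTG) in 15.9%. Regions are not replicates and share base composition, so no test was made over them.

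**Figure D2:**
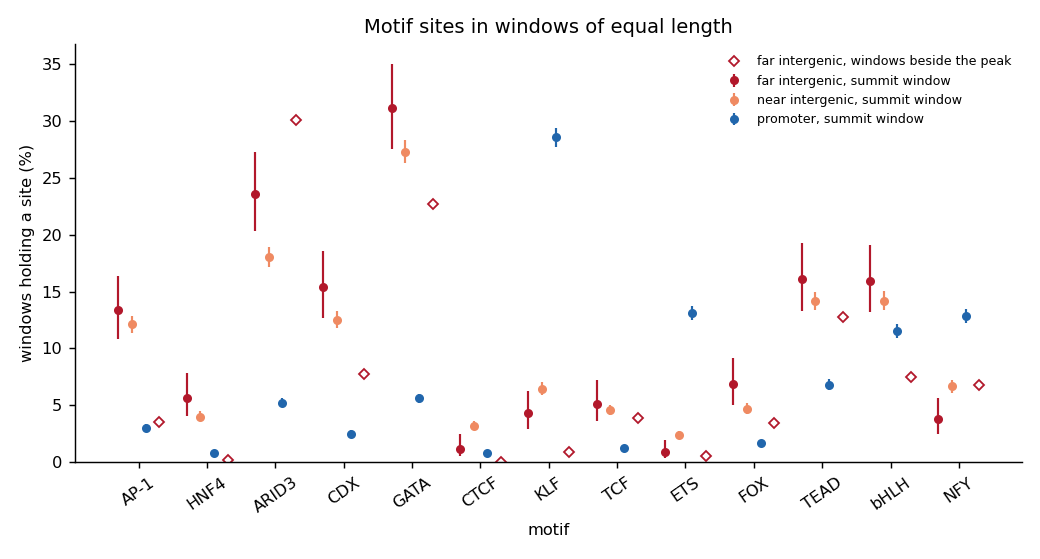
Share of windows of 201 bases that hold at least 1 site (y axis, %) for 13 motifs (x axis). Filled points are summit windows of far intergenic members, near intergenic and promoter peaks with 95% Wilson intervals, and open diamonds are windows 1500 bases to either side of the members. HNF4 shows 5.65% at member summits against 0.171% beside them, and ARID3 shows 23.6% against 30.1%.

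Most members carried only 1 or 2 kinds of site. Of the 584, 125 (21.4%) held none of the 13 motifs, 201 held 1, 171 held 2, 58 held 3, 25 held 4 and 4 held 5. AP-1 and GATA letters occurred together in 24 members, HNF4 and GATA letters in 8, and AP-1 and HNF4 letters in 3. Sites of AP-1, GATA, HNF4 and ARID3 lay a median of 44.5, 44.0, 50 and 47.5 bases from the summit. The 7 CTCF sites lay a median of 33.0 bases from it. The summit is the centre of each window, so evenly spread sites would lie a median of about midway to its edge. The medians of AP-1, GATA, HNF4 and ARID3 were near that distance. Whether sites gathered at the summit was not tested.

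Members flanked 593 of 20780 protein-coding genes. They included 12 intestinal transcription factors, 17 developmental transcription factors and 16 neuronal adhesion and synapse genes. For each member the nearest coding gene on either side was taken. The nearer one was a median of 97.6 kb away (0.828 to 1730 kb), which exceeds the TSS distance because the nearest TSS belonged to a non-coding gene or pseudogene for 392 members. Only 2829 coding genes adjoin far intergenic sequence and could flank a member at all. Of these 593 did (21.0%). Among intestinal transcription factors 12 of 18 such genes did (66.7%), and their adjoining sequence held 5.87 member neighbours per Mb, against 1.57 for all coding genes. A promoter peak in all 6 lists was found for 310 of the 593 flanking genes (52.3%), against 45.8% of all coding genes.

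The intestinal transcription factors beside members included Gata6, a zinc-finger factor of crypt and villus, with 4 members from 33.4 kb. Ets2 had 1 at 54.0 kb, and Maf, a leucine-zipper factor, had 13 from 78.7 kb, more than any other gene. Myc had 3 from 79.9 kb, Arid5b, a relative of ARID3A by its DNA-binding domain, had 1 at 110 kb, and Sox9, a factor of stem and Paneth cells, had 7 from 123 kb. Maf and Sox9 together made up 20 of the list's 38 member neighbours. All 13 members beside Maf lay on chromosome 8, spread over more than 800 kb, with mean percentiles from 31.4 to 74.7. Those beside Sox9 had mean percentiles from 26.3 to 83.7.

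None of the other gene lists exceeded the 1.57 member neighbours per Mb of all coding genes. By share, absorptive genes stood far above the 21.0% of all coding genes, and the other lists stood nearer to it. Developmental transcription factors flanked members in 17 of 58 cases (29.3%, 1.56 neighbours per Mb), the nearest being Zeb1 at 44.5 kb, Zfhx3 at 45.4 kb, Bcl11b at 53.6 kb, Sox6 at 72.4 kb, Sox5 at 77.0 kb and Irx4 at 100.1 kb. Neuronal adhesion and synapse genes, which border many gene deserts, flanked members in 16 of 59 cases (27.1%) at only 0.446 per Mb, the nearest being Cntnap2, Cdh9, Pcdh18, Epha4, Dscam and Gria4. Only 2 of these 16 genes had a promoter peak in all 6 lists. Wnt pathway and stem cell genes flanked members in 4 of 15 cases (26.7%, 1.53 per Mb), namely Nkd1, Ccnd1, Lrig1 and Mki67. Absorptive genes did so in 4 of 7 cases (57.1%) but at 1.12 per Mb. Tmprss15, which encodes the protease that activates trypsin, lay 51.9 kb from a member, and Slc30a10, Sis and Slc10a2 lay farther off. The 1 secretory gene that adjoins far intergenic sequence flanked none. The lists are short and no test was made over genes.

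**Figure D3:**
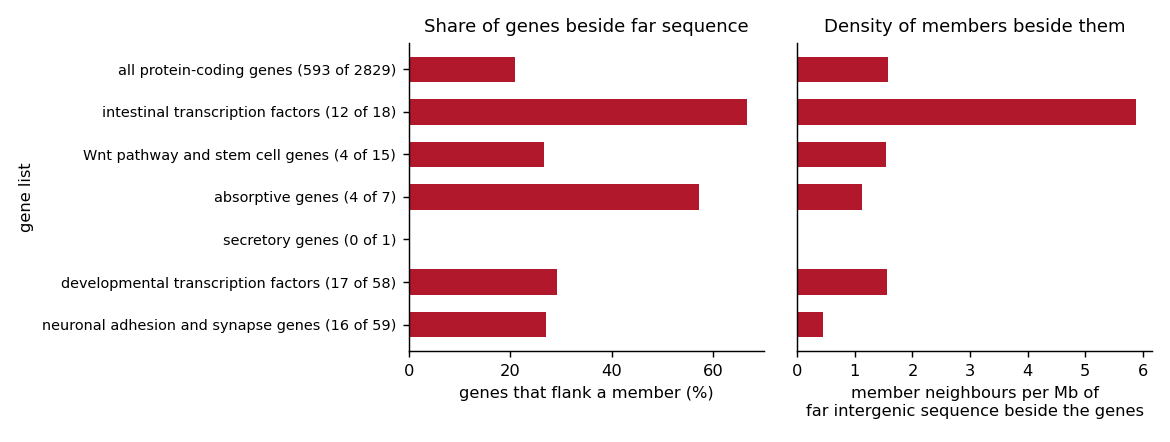
Left, share of the protein-coding genes adjoining far intergenic sequence that flank a member (x axis, %), for all coding genes and 6 gene lists (y axis, with counts). Right, number of member neighbours per Mb of adjoining far intergenic sequence. Intestinal transcription factors stand at 66.7% and 5.87 per Mb, against 21.0% and 1.57 per Mb for all coding genes.

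Several members often shared 1 interval between genes. The 584 members occupied 344 intergenic intervals, whose median length over members was 182 kb, and 224 members were alone in theirs. The 59 intervals with 3 or more members held 238 of them. No interval held more than 7, and 4 intervals held that number. Among them were those between Tle3, a corepressor of TCF factors, and Rplp1 on chromosome 9, between Chd7, a chromatin remodeller, and Clvs1 on chromosome 4, and between Cdh26 and Cdh4, a pair of cadherin genes, on chromosome 2. Members of 1 interval differed widely in strength: between Tle3 and Rplp1 their mean percentiles ran from 17.5 to 81.4.

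No member differed between WT and cKO by the test, while the median shift of the members towards cKO was above that of all constant peaks. limma was fitted to the percentiles of all 32147 constant peaks, and at an adjusted p under 0.05 it called 0 members higher and 0 lower in cKO, against 0% of all constant peaks in each direction. The smallest adjusted p was 0.698. At an unadjusted p under 0.05, limma gave 42 members higher (7.19%) and 12 lower in cKO (2.05%), against 2.88% and 4.04% of all constant peaks. Without WT 1, WT 2 or WT 3 the members' counts were 28 and 13, 31 and 5, and 73 and 5. Over all 32147 constant peaks the same fits gave 557 and 1479, 768 and 765, and 1713 and 957. Without cKO 1, cKO 2 or cKO 3 the members' counts were 19 and 13, 76 and 15, and 23 and 6. Those over all constant peaks were 456 and 896, 2008 and 3314, and 578 and 614. The percentiles of the groups did not overlap, with cKO above WT, for 59 members (10.1%), against 4.68% of all constant peaks. With cKO below WT, they did not overlap for 14 (2.40%), against 7.09%. None of the 20 alternative fits called a peak, and their unadjusted counts over all constant peaks ranged from 456 to 2567 higher and from 308 to 3534 lower. Over members they ranged from 19 to 107 higher and from 4 to 19 lower.

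The median shift of members, cKO mean minus WT mean, was 4.73 percentile points. The shift was positive for 412 of 584 members (70.5%), against 49.3% of all constant peaks. That share was 57.1% for near intergenic, 53.8% for gene body and 38.5% for promoter peaks. The median shift was 1.61 for near intergenic, 0.719 for gene body and -1.27 for promoter peaks, and -0.107 over all constant peaks. The members' median rested largely on 1 sample. Without WT 1 it was 0.424, against -1.84 over all constant peaks, and without cKO 1 it was 2.47. Without WT 3 it was 7.58 and without cKO 2 it was 7.84, against 0.900 and 0.269 over all constant peaks. When peaks were ranked only among the constant peaks, so that the other peaks of a list no longer entered, the members' median shift was 4.48, against -0.639 over all constant peaks. It was then 3.18 without WT 1 and ran from 3.15 to 6.82 over the 6 samples left out.

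The per-sample values overlapped between the genotypes. Ranked among constant peaks, the median member stood at percentile 39.8, 44.1 and 47.2 in WT 1 to 3 (mean 43.7 ± 3.70, SD, n = 3) and at 52.2, 43.4 and 51.8 in cKO 1 to 3 (mean 49.1 ± 4.95, SD, n = 3). cKO 1 and cKO 3 lay above all WT samples, and cKO 2 lay among them. Promoter peaks went the other way in the same samples, with medians of 76.2, 74.2 and 73.3 in WT and 68.4, 75.4 and 68.8 in cKO. In cKO 2 both classes lay within the range of WT.

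Among intergenic constant peaks the median shift was larger in each bin farther from the TSS up to the limit of the rule. It was -0.244 at 1 to 5 kb (n = 1681), 1.34 at 5 to 10 kb, 2.39 at 10 to 25 kb and 2.73 at 25 to 50 kb. Members at 50 to 75 kb (n = 331) had a median shift of 4.78, those at 75 to 100 kb (n = 123) of 3.94 and those beyond 100 kb (n = 130) of 4.89. Without WT 1, the medians were -2.55 in the nearest bin, 0.792 at 50 to 75 kb and 0.115 beyond 100 kb. A+T content moved with distance as well, from 48.8% at 1 to 5 kb to 55.3% beyond 100 kb, and its part in the shift was not tested. Within members, grouped from the 147 poorest in A+T to the 146 richest, the median shift was 3.80, 3.63, 6.84 and 5.61, without a steady rise. It was 0.698, 1.79, 2.12 and 3.14 in near intergenic peaks over the same A+T ranges.

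**Figure D4:**
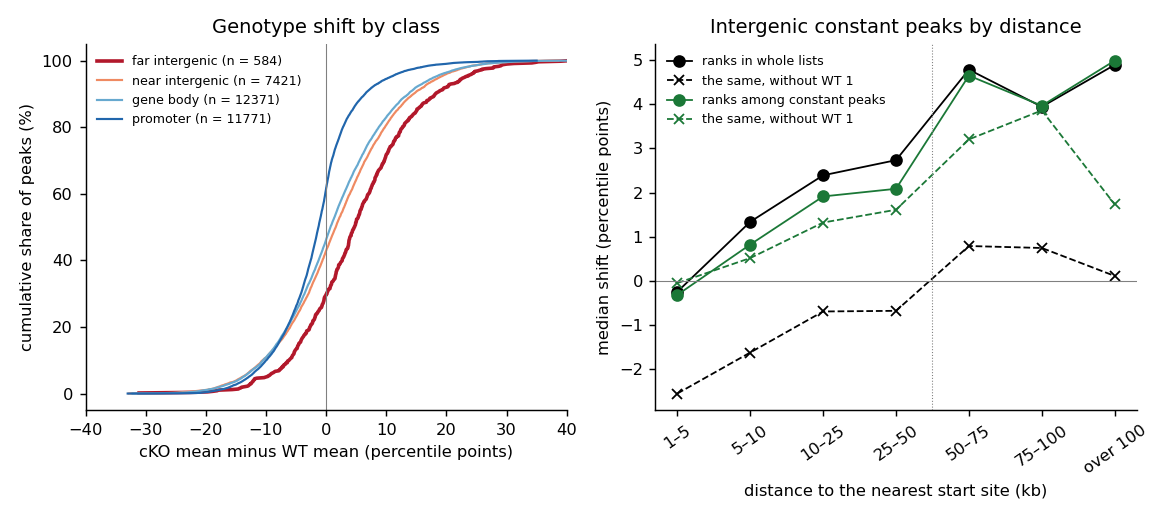
Left, cumulative share of constant peaks (y axis, %) by shift, cKO mean minus WT mean in percentile points (x axis), for 4 position classes. Right, median shift of intergenic constant peaks (y axis) by distance to the nearest TSS (x axis, kb), with ranks in whole lists (black) or among constant peaks (green), with all samples (circles) or without WT 1 (crosses), and a dotted line at the 50 kb limit. The far intergenic curve lies to the right of the others with a median of 4.73, and without WT 1 the black medians beyond 50 kb lie between 0.115 and 0.792.

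Members with HNF4 letters had the largest median shift among motifs with more than 10 carriers. It was 8.76 over the 33 carriers (25 positive, where 70.5% of all members were), against 4.40 over the other members. The 7 carriers of CTCF letters had a larger median shift of 9.98 (4 positive), which was 0.284 without WT 1. The median shift was 6.62 over the 40 carriers of FOX letters, 5.61 over the 182 carriers of GATA letters, 5.59 over the 138 of ARID3 letters, 4.65 over the 90 of CDX letters and 3.77 over the 78 of AP-1 letters. Without WT 1 HNF4 no longer stood above FOX, with 2.07 for both HNF4 and FOX, 1.29 for GATA, 1.78 for ARID3, -0.682 for CDX and 0.477 for AP-1. In the classes most like members, CTCF carriers also had larger median shifts than HNF4 carriers. With all samples, near intergenic carriers had median shifts of 2.52 for HNF4, 4.36 for CTCF, 2.69 for ARID3 and 2.60 for TCF. Gene body carriers had 1.41 for HNF4 and 3.68 for CTCF. The HNF4 member shown above, 16.0 kb from Plcl1, stood at 82.8, 74.8 and 81.3 in WT and at 88.4, 86.0 and 90.9 in cKO. The 3 cKO values lay above the 3 WT values, with a shift of 8.76 ± 3.53 (SE) and an adjusted p of 0.708 by limma. The CTCF member 100.1 kb from Irx4 stood at 60.8, 82.4 and 76.5 in WT and 84.6, 83.2 and 81.8 in cKO, and its groups overlapped.

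The 5 members with the largest positive statistic had cKO percentiles above all WT percentiles. The first, 119 kb from Rgmb, a co-receptor for bone morphogenetic proteins, stood at 30.4, 34.3 and 36.1 in WT and 70.1, 57.5 and 66.8 in cKO. Its pileup was 12, 13 and 14 fragments in WT and 33, 20 and 29 in cKO, and its window, shown above, held 3 GATA sites and 1 ARID3 site. The shift was 31.2 ± 4.31 (SE), with an unadjusted p of 0.000375 and an adjusted p of 0.698 by limma. The third lay 81.0 kb from Rnd3, a regulator of the cytoskeleton, at 22.9, 28.8 and 48.6 in WT and 74.9, 58.4 and 84.0 in cKO. The fourth lay 45.4 kb from Zfhx3, a homeobox gene, and the fifth between Clec14a and Sec23a, with shifts of 35.3 ± 8.63 and 19.5 ± 5.0 (SE). None passed the adjusted threshold.

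The 5 with the largest negative statistic had cKO percentiles below all WT percentiles. The member with the repeated sequence, 106 kb from Pdgfa, a growth factor of the mesenchyme, stood at 46.8, 59.2 and 58.3 in WT and 31.2, 25.6 and 14.3 in cKO. Its shift was -31.1 ± 5.87 (SE), with an adjusted p of 0.698 by limma. The member 57.1 kb from Fat1, an atypical cadherin, stood at 79.9, 84.2 and 76.7 in WT and 68.6, 59.4 and 53.7 in cKO. The member nearest to Gata6 stood at 56.6, 61 and 64.4 in WT and 48.8, 42.3 and 23.0 in cKO, and the other 3 members beside Gata6 had shifts of -4.81, -4.61 and 5.67. The remaining 2 lay between Rgmb and Zfp960 and 43.8 kb from Hivep1, with Edn1 on its far side. The interval between Rgmb and Zfp960 thus held members of both kinds: its 4 members spanned 66.1 kb with shifts of 23.9, 31.2, -1.94 and -12.0.

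**Figure D5:**
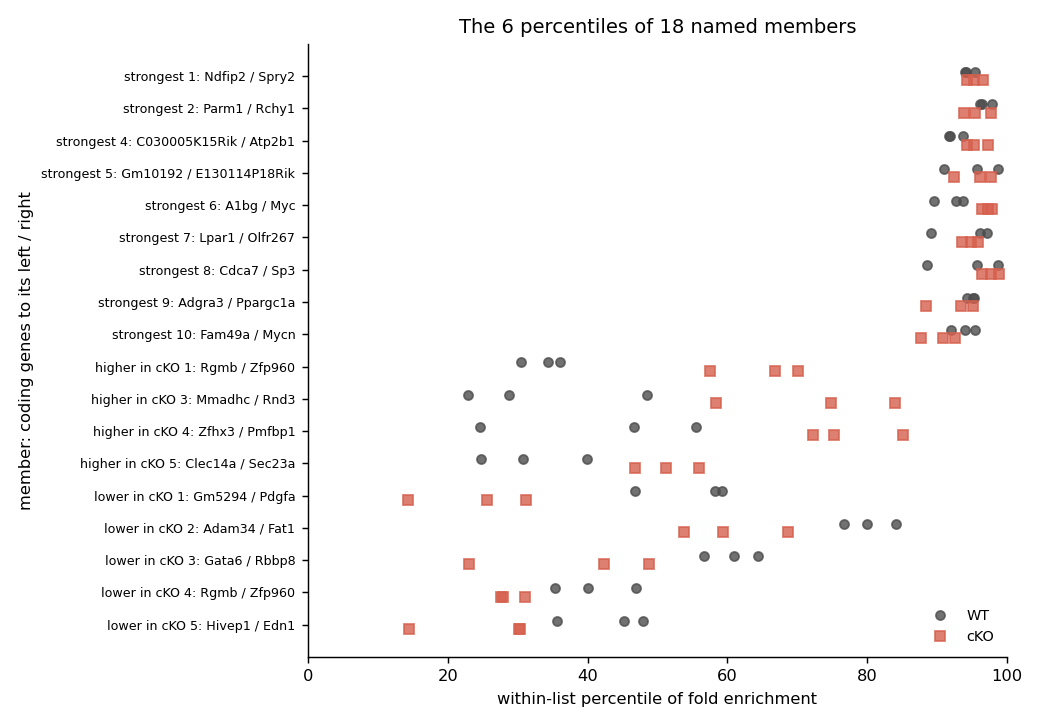
Within-list percentile of fold enrichment (x axis) in the 3 WT (circles) and 3 cKO lists (squares) for 18 members (y axis, with the coding genes on either side): 9 of the 10 strongest, and 4 and 5 of those with the largest positive and negative statistic. The 9 strong members lie above percentile 87 in all 6 lists, and in the other 9 the genotypes do not overlap, although no adjusted p passed the threshold.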

How the data were processed

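ATAC-seq libraries of 3 WT and 3 cKO crypt samples were aligned to GRCm38 in the authors' nf-core workflow, and MACS2 called narrow peaks per sample, without pooled replicates and without a described input control. The lists deposited by the authors give for each peak a score, a fold enrichment (a ratio to the local background), both p and q as −log10 values, and a summit offset. Read counts were not used here. Percentiles of fold were computed within each list on chromosomes 1 to 19, lists were merged by overlaps of at least 1 base, and the summit of a merged peak was that of its highest-ranked peak. Genes came from GENCODE M21 and sequence from RefSeq GRCm38. A promoter reached from 1000 bases before to 100 after a TSS. The genotype fit was limma 3.58.1 (R 4.3.3) on percentiles of constant peaks, with Benjamini-Hochberg adjustment over all 32147, and it was checked on data of known answer. In these, it recovered nearly all shifts of 40 percentile points and a minority of those of 20. The simulated peaks varied independently with an equal spread, unlike the real peaks, so this recovery does not carry over to them. In the real fit the member 81.0 kb from Rnd3, with a shift of 39.0, had an adjusted p of 0.698 by limma. Other steps ran under Python 3.11.15 with scipy 1.17.1 and blastn 2.17.0. The alternatives changed the distance, annotation, thresholds, ranking, model and samples. The summit pileup is an inference from the deposited ratio and p, and total reads are unknown here.

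The members, motifs and gene lists were chosen with earlier results of these data known. Named members were the 10 with the highest lowest percentile, the 5 with the largest statistic in each direction, the best-ranked carrier of each of 5 motifs and those beside the distance limit. Named genes flank these or belong to the lists, up to 6 per list. The intervals named held most members, and 4 tied. Of these items, 2 members and 1 interval are not reported here. The Gata6, Maf, Sox9 and Rgmb neighbours were described after their values were seen.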

Additional observations from a re-analysis of the deposited data

How the results depend on the processing

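The number of members depended on the rule: 1762 with a limit of 25 kb, 130 with 100 kb and 2907 when only protein-coding genes counted. Other changes gave 416 to 583, and presence in the other 5 lists gave 587 to 712 as each sample was left out. The A+T content was 53.6% with 250 bases to each side and 52.3% over members whose summits lay within 100 bases. The median strength was 52.7 by −log10 p, by which members ranked below near intergenic and gene body peaks in all 6 lists. Motif shares followed the window size, as its length sets them. None of the 21 limma fits called a constant peak, and the members' median shift stayed above that of all constant peaks in each, by 2.27 to 7.58 percentile points as samples were left out. That comparison, and ranks among constant peaks combined with left-out samples or the replicate block, were added after seeing the data. Leaving samples out moved the median shift between 0.424 and 7.84. With normal scores it was 0.152 and with quantile-normalised log2 fold 0.0912, on their own scales. With the replicate block, 0 peaks were called and the median shift was 4.73. Same-numbered samples deviated with correlations of -0.296, -0.0278 and 0.134, and the other pairs ran from -0.348 to 0.334. Deviations from means of 3 samples cannot tell whether same-numbered samples shared more than a number. The lists give no read counts, and groups of 3 limit every test.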
